A study of Mus musculus with 22 samples.

Results

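The genes described here are 10 genes known as markers of the choroid plexus: Ttr, Enpp2, F5, Folr1, Kl, Aqp1, Slc4a5, Clic6, Kcnj13 and Cldn2. They were taken as a list by symbol, out of 20129 gene symbols with a RefSeq probe on the array, and all 10 were found. Each gene was read from 1 probe, the RefSeq-identified probe with the highest median over the 22 arrays, and each of these probes was detected in every one of the 3 series, in 1 fraction or more. In Transcriptome Tomography a whole brain is cut along 1 body axis, runs of slices are collected as fractions, and their RNA is hybridised to arrays, so that the level of a transcript can be read along that axis. Total RNA from 3 male C57BL/6J mice, an inbred strain with no treatment named in the labels, gave 10 coronal fractions from 1 mouse, 6 horizontal fractions from another and 6 sagittal fractions from the last. Titles of the samples gave the age as P7, that is postnatal day 7, whereas the age field gave 3 days. The study lists its set of 22 fractions as the 7-day brain. Each fraction was measured once and each series came from 1 animal, so no value has a replicate. Coronal fraction 10 pooled slabs 10 and 11, sagittal fraction 1 pooled slabs 1 and 2, sagittal fraction 6 pooled slabs 7 to 9, and every other fraction was 1 slab.

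The choroid plexus is a folded sheet of epithelium around a core of leaky capillaries that hangs into the brain ventricles. Its epithelial cells secrete most of the cerebrospinal fluid, carry vitamins and hormones from blood to fluid, and seal the barrier between them with tight junctions. One plexus lies in the ventricle of the hindbrain and others lie in the ventricles of the forebrain, so a gene made mainly by this epithelium is met in separate places along the body axis of a mouse. In whole slabs a lower level can come from fewer plexus cells or from less RNA per cell, and these cannot be told apart here.

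To show the DNA next to which these genes start, promoter windows were taken from RefSeq (GRCm38.p6), each running from 250 bases before to 50 bases after an annotated start. Windows of 6 of the genes were searched, namely Kl, Kcnj13, Aqp1, Slc4a5, F5 and Cldn2. The other 4 genes were not searched, and the counts below do not cover them. Printed here are Kl, which peaked in coronal fraction 7, Aqp1, whose levels in fractions 3 and 7 were nearly equal, and Kcnj13 and Cldn2, which were both higher in fraction 3. Capitals mark TATAAA, the core of a TATA box, and CAGCTG, an E-box. The windows are Kl at chr5:150952357-150952656 (plus strand), Aqp1 at chr6:55336049-55336348 (plus strand), Kcnj13 at chr1:87394680-87394979 (minus strand) and Cldn2 at chrX:139800558-139800857 (plus strand), each printed 5′ to 3′ in the direction of the gene.
Kl: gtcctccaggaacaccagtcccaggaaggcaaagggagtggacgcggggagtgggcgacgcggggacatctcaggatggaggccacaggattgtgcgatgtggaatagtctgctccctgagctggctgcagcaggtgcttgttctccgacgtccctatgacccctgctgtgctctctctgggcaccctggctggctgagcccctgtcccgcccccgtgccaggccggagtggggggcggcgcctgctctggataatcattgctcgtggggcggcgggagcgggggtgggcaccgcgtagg
Aqp1: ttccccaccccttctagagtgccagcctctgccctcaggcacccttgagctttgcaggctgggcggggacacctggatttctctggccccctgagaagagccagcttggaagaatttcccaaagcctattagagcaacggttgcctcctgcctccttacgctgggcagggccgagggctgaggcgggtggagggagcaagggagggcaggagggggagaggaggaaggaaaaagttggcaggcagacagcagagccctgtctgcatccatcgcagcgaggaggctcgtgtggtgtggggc
Kcnj13: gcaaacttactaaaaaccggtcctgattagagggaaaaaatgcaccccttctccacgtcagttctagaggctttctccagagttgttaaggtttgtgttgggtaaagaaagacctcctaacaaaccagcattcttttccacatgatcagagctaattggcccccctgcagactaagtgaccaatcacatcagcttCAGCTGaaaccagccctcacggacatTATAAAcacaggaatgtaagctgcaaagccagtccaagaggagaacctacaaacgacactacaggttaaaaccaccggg
Cldn2: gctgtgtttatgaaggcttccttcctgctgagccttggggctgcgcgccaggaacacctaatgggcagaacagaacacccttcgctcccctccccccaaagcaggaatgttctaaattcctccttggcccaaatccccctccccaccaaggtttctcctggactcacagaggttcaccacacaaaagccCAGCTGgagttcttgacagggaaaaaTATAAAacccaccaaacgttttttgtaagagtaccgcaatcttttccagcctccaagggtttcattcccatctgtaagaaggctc

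Searched on both strands, TATAAA stood in 3 of the 6 windows (Kcnj13, Slc4a5 and Cldn2) and in 13.6% of all 32851 windows of 300 bases in the table. The palindrome CAGCTG stood in the same 3 windows and in 16.3% of all windows. In Kcnj13 the TATAAA began 29 bases before the start and in Cldn2 35 bases before it. In both of these genes CAGCTG began 26 bases upstream of TATAAA. The Slc4a5 window held TATAAA on the opposite strand only, beginning 127 bases before the start. Neither TAATCC, bound by OTX homeodomain proteins, nor GTAAACA, bound by forkhead proteins, was found in any of the 6 windows, against 7.06% and 3.65% of all windows. Windows differed in base composition, from 46.0% G and C in Kcnj13 to 67.3% in Kl, with a median over all windows of 52.7%. These are descriptions of the letters in a short window and say nothing of which proteins bind there.

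On the arrays the level of a gene is log2 of the processed intensity of its probe minus log2 of the array's 75th percentile, so a level of 0 equals that percentile and a step of 1 is a doubling. The arrays had 29605 to 41965 probes well above background, out of 55600. The slope of signal against known amounts of added spike-in RNA was marked out of range on 7 arrays, namely 2 of the coronal series (1 and 2), 3 of the horizontal (1 to 3) and 2 of the sagittal (1 and 3), and these arrays had more detected probes than the rest (medians 37688 and 31444). Coronal fractions 3 and 7 were both in range and shared a slide. The SD between repeated spots of a bright probe on 1 array was 0.0503 to 0.0760 log2 units, which is the error of a spot and holds neither labelling error nor the difference between animals. Without the 7 arrays the counts of highest fractions given below went from 9 to 10 in the coronal and from 8 to 9 in the horizontal series. The gene gained was F5 in both, whose highest fractions were among the arrays left out, so these counts are no check of the peaks.

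The position of coronal fractions 3 and 7 was checked with region markers, because the labels did not say from which end the fractions were numbered. Hindbrain genes were lower by more than 1 log2 unit in fraction 7 than in fraction 3 in 12 of 12 detected members of the list. Of 13 hindbrain genes 12 were well above background in fraction 3 and 3 in fraction 7, so no size is given for the difference. Atoh1, a transcription factor of granule cell precursors in the rhombic lip, had levels of 0.84 in fraction 3 and -6.18 in fraction 7, where it was not well above background. Forebrain genes went the other way in 11 of 12, with a median difference of 4.87 log2 units. Tbr1, a transcription factor of cortical neurons, had levels of -1.92 in fraction 3 and 4.00 in fraction 7. Hindbrain markers were therefore high in fraction 3 and forebrain markers in fraction 7, as the comparison of the ventricles takes them to be.

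Along the coronal series the choroid plexus genes showed peaks in 2 separate places, with a trough between them. In 9 of the 10 genes the level was higher in fraction 3 than in fractions 2 and 4 and also higher in fraction 7 than in fractions 6 and 8, a shape found in 8.48% of all 39621 detected probes. The exception was F5, which was higher in fraction 2 than in fraction 3, and Kcnj13 had both peaks by the probe used but neither by its other probe. For the other 9 the step from fraction 2 to fraction 3 was 0.24 to 0.74 log2 units, smaller than the step from fraction 3 down to fraction 4 in 8 of them, and fraction 2 was hybridised on another slide. The mean of fractions 3 and 7 exceeded the mean of fractions 4 and 5 by more than 1 log2 unit in 9 of 10 genes, against 3.71% of probes, with a median over the genes of 1.97 and over all probes of 0.01. Kcnj13 was the exception here, at 0.67. The highest coronal fraction was 3 for 7 genes, 7 for Kl and Clic6, and 2 for F5. Fraction 3 or 7 was the highest for 20.8% of probes. These shares describe the list, which was named for its tissue, and are not tests.

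**Figure D1:**
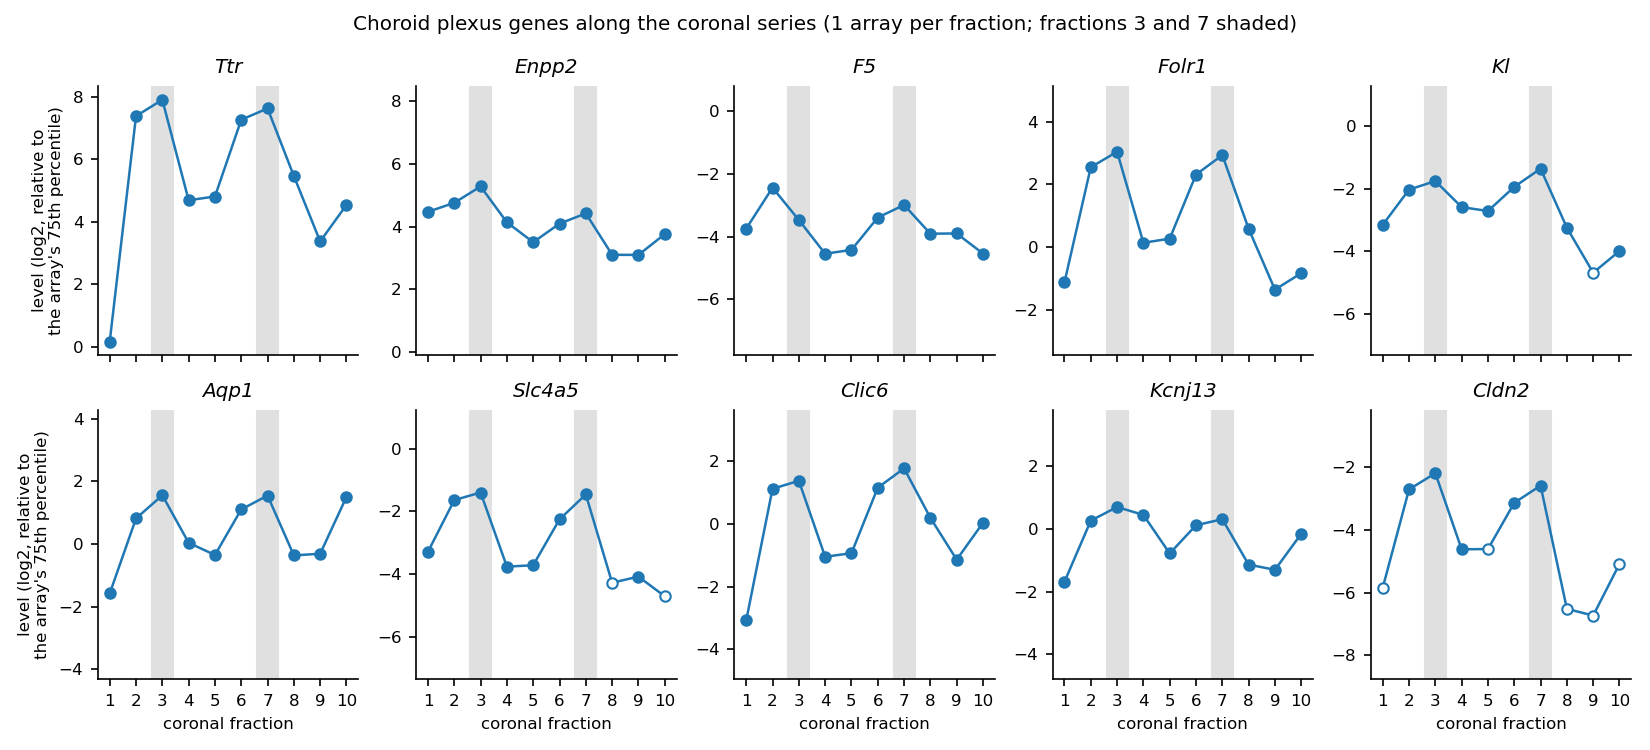
Level of each gene (vertical axis, log2 relative to the array's 75th percentile, the same span of log2 units in every panel) in the 10 coronal fractions (horizontal axis), 1 array per fraction. Filled points were well above background, open points were not, and the grey bars mark fractions 3 and 7, where 9 of the 10 genes had local peaks by the probe used.

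Among the secreted proteins, Ttr encodes transthyretin, which carries thyroid hormone and retinol-binding protein in the cerebrospinal fluid. Its coronal levels from fraction 1 to fraction 10 were 0.17, 7.38, 7.90, 4.69, 4.81, 7.26, 7.62, 5.46, 3.37 and 4.54. The 4 highest values were thus fractions 2, 3, 6 and 7, and the pair of peaks was split by a trough in fractions 4 and 5. Fraction 3 was 9.24-fold above fraction 4 and 211-fold above fraction 1, an array whose spike-in slope was out of range. On the far side, fraction 7 was 4.46-fold above fraction 8.

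Enpp2 encodes autotaxin, a secreted enzyme that makes lysophosphatidic acid and that is made by oligodendrocytes as well as by the plexus. Along the coronal series its levels were 4.47, 4.76, 5.28, 4.14, 3.50, 4.09, 4.42, 3.10, 3.10 and 3.76. The peak in fraction 7 was lower than that in fraction 3, and fraction 1, where most of the other genes were low, stood next after fractions 3 and 2. Fraction 3 was 1.75-fold above fraction 1, an array with its spike-in slope out of range, and 2.21-fold above fraction 4. Oligodendrocyte markers followed only part of this course. Summed levels of 7 myelin genes in fractions 1, 2, 3, 4 and 7 were 387, 187, 300, 146 and 37.3. From fraction 1 to fraction 2 the sum of these genes fell while Enpp2 rose. Their part in the Enpp2 values was not tested.

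F5 encodes coagulation factor V, the cofactor of factor X in the formation of thrombin. In coronal order its levels were -3.74, -2.43, -3.47, -4.54, -4.42, -3.39, -2.99, -3.90, -3.90 and -4.54. Fraction 2 was the highest, fraction 7 followed, and the trough in fractions 4 and 5 was present. The other F5 probe was detected in 1 fraction alone, coronal fraction 7 with a level of -4.48, and over the 22 fractions it correlated with the probe used at a Pearson r of 0.25. The gene therefore rests on 1 dim probe, and the disagreement between the probes bears on each F5 value here.

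Of the receptors, Folr1 encodes folate receptor alpha, which takes up folate for transport into the cerebrospinal fluid. The coronal levels of Folr1 were -1.13, 2.54, 3.04, 0.13, 0.26, 2.31, 2.93, 0.58, -1.36 and -0.84. By the probe used the peaks in fractions 3 and 7 were nearly level and the trough between them was deep: fraction 3 was 7.49-fold above fraction 4, and fraction 7 was 6.35-fold above fraction 5. The other Folr1 probe was dimmer, and correlated with the probe used at r = 0.80. It was well above background in both fractions, and its level was 0.60 log2 units higher in fraction 7 than in fraction 3, where the probe used gave -0.11, so the probes disagree on how level the peaks were.

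Kl encodes Klotho, a membrane protein that serves as a co-receptor for a hormone of phosphate balance and that is also shed into the cerebrospinal fluid. From fraction 1 to fraction 10 Kl had levels of -3.15, -2.03, -1.75, -2.59, -2.71, -1.94, -1.36, -3.24, -4.68 and -3.99. Fraction 7 was the highest and the trough was shallow, with fraction 3 at 1.78-fold above fraction 4. The value of fraction 9 was not well above background, so fraction 7 was at least 9.99-fold higher than it.

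Among the genes of water and ion movement, Aqp1 encodes the water channel of the apical membrane. The 10 coronal levels of Aqp1 were -1.58, 0.81, 1.55, 0.04, -0.35, 1.10, 1.54, -0.37, -0.31 and 1.50. Fractions 3, 7 and 10 were nearly equal, and fraction 10 was 3.52-fold above fraction 9. Ttr, Clic6 and Kcnj13 also had higher levels in fraction 10 than in fraction 9, by 1.17, 1.17 and 1.15 log2 units, and Enpp2 and Folr1 by 0.66 and 0.53. In F5 the difference was -0.64 log2 units, and in Slc4a5, Kl and Cldn2 1 or both of these fractions were not well above background. In the same fraction the summed level of 8 markers of meningeal fibroblasts was 85.5, against 46.6 in fraction 9, and that of 4 markers of border macrophages was 13.3 against 6.8, although 1 of these, Cd163, was lower in fraction 10 (-6.63 against -1.93). Oligodendrocyte markers (41.5 against 20.2) and ependymal markers (10.6 against 6.13) were higher there too. Whether these cells contributed to the values of fraction 10 was not tested.

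Slc4a5 encodes an electrogenic sodium bicarbonate cotransporter of the apical membrane. Coronal levels of Slc4a5 were -3.29, -1.64, -1.40, -3.76, -3.72, -2.25, -1.46, -4.28, -4.08 and -4.71, with fractions 8 and 10 not well above background. Fraction 3 stood 0.24 log2 units above fraction 2, and fraction 7 was at least 7.06-fold above fraction 8. The second Slc4a5 probe, detected in 10 fractions, correlated with it at r = 0.86.

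Clic6 belongs to the chloride intracellular channel family. For Clic6 the coronal levels were -3.08, 1.12, 1.38, -1.05, -0.93, 1.16, 1.78, 0.20, -1.14 and 0.04. Fraction 7 was the highest and fraction 1, an array whose spike-in slope was out of range, the lowest, 28.9-fold apart.

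Kcnj13 encodes an inwardly rectifying potassium channel of the apical membrane. Kcnj13 had coronal levels of -1.68, 0.27, 0.70, 0.45, -0.78, 0.12, 0.31, -1.13, -1.30 and -0.15. By this probe fraction 4 was 0.25 log2 units below fraction 3, and the trough lay in fraction 5. The other Kcnj13 probe, well above background in all 22 fractions and correlated with it at r = 0.84, had its highest coronal level in fraction 2, with 0.21 there against -0.01 in fraction 3, and fraction 6 (-0.26) stood above fraction 7 (-0.32). The local peaks of Kcnj13 in fractions 3 and 7 therefore rest on the choice of probe. The summed level of the fibroblast markers was highest of the coronal series in that same fraction 4, at 120, and so was that of the endothelial markers, at 70.6. Their part in the Kcnj13 values was not tested.

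Cldn2 encodes claudin-2, a tight junction protein that forms a pore for small cations between cells. It was well above background in coronal fractions 2, 3, 4, 6 and 7 only, with levels of -2.70, -2.19, -4.62, -3.13 and -2.58. In the other 5 fractions its values lay between -6.73 and -4.61 and none was well above background. Fraction 3 was 5.39-fold above fraction 4, and fraction 7 was at least 7.92-fold above fraction 8. The other Cldn2 probe was detected in 1 fraction, and correlated with this one at r = 0.26.

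Set against each other, the fractions with hindbrain and forebrain markers differed in these genes by -0.86 to 0.48 log2 units, fraction 7 minus fraction 3. Of the 10 genes 0 differed by more than 1 log2 unit. Most probes did not either, since 8.88% were higher by that much in fraction 7 and 12.4% were lower, and nothing particular to these genes is read from this count. With 1 array per fraction there is no test of these differences, and each is a difference between 1 slab of 1 brain and another. The level was higher in fraction 3 for 7 genes and higher in fraction 7 for 3. The median difference, fraction 7 minus fraction 3, was -0.09 over the genes and -0.09 over all probes (quartiles -0.59 and 0.36).

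The genes higher in fraction 7 were F5 by 0.48 log2 units, Clic6 by 0.40 and Kl by 0.40. On the linear scale these were 1.39-fold, 1.32-fold and 1.32-fold. Kl went from -1.75 to -1.36 and Clic6 from 1.38 to 1.78, and in both genes fraction 7 was also the highest of the whole series. At the other end, Enpp2 was 1.81-fold higher in fraction 3, with a difference of -0.86 between a level of 5.28 and one of 4.42. The oligodendrocyte list differed in that direction too, by a median of -3.56 log2 units, with 6 of its 7 genes past 1. Kcnj13 and Cldn2 were each 1.31-fold higher in fraction 3, and Ttr 1.21-fold, from 7.90 to 7.62 log2 units.

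The 3 remaining genes were nearly level between the fractions by the probes used. Aqp1 differed by -0.01, less than the SD between repeated spots, Slc4a5 by -0.06 and Folr1 by -0.11 log2 units (0.60 in its other probe). Markers of red blood cells, which carry Aqp1 in their membrane, were lower in fraction 7 by a median of 1.63 log2 units, with a summed level of 26.4 against 96.0 in fraction 3. Their part in the Aqp1 values was not tested. Across 6 other ways of scaling the arrays or reading the probes, the sign of the difference was kept for Kl, Clic6, F5, Kcnj13, Enpp2 and Cldn2. It changed in at least 1 of them for Ttr (-0.28 to 0.34), Folr1 (-0.12 to 0.25), Slc4a5 (-0.13 to 0.05) and Aqp1 (-0.01 to 0.10).

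**Figure D2:**
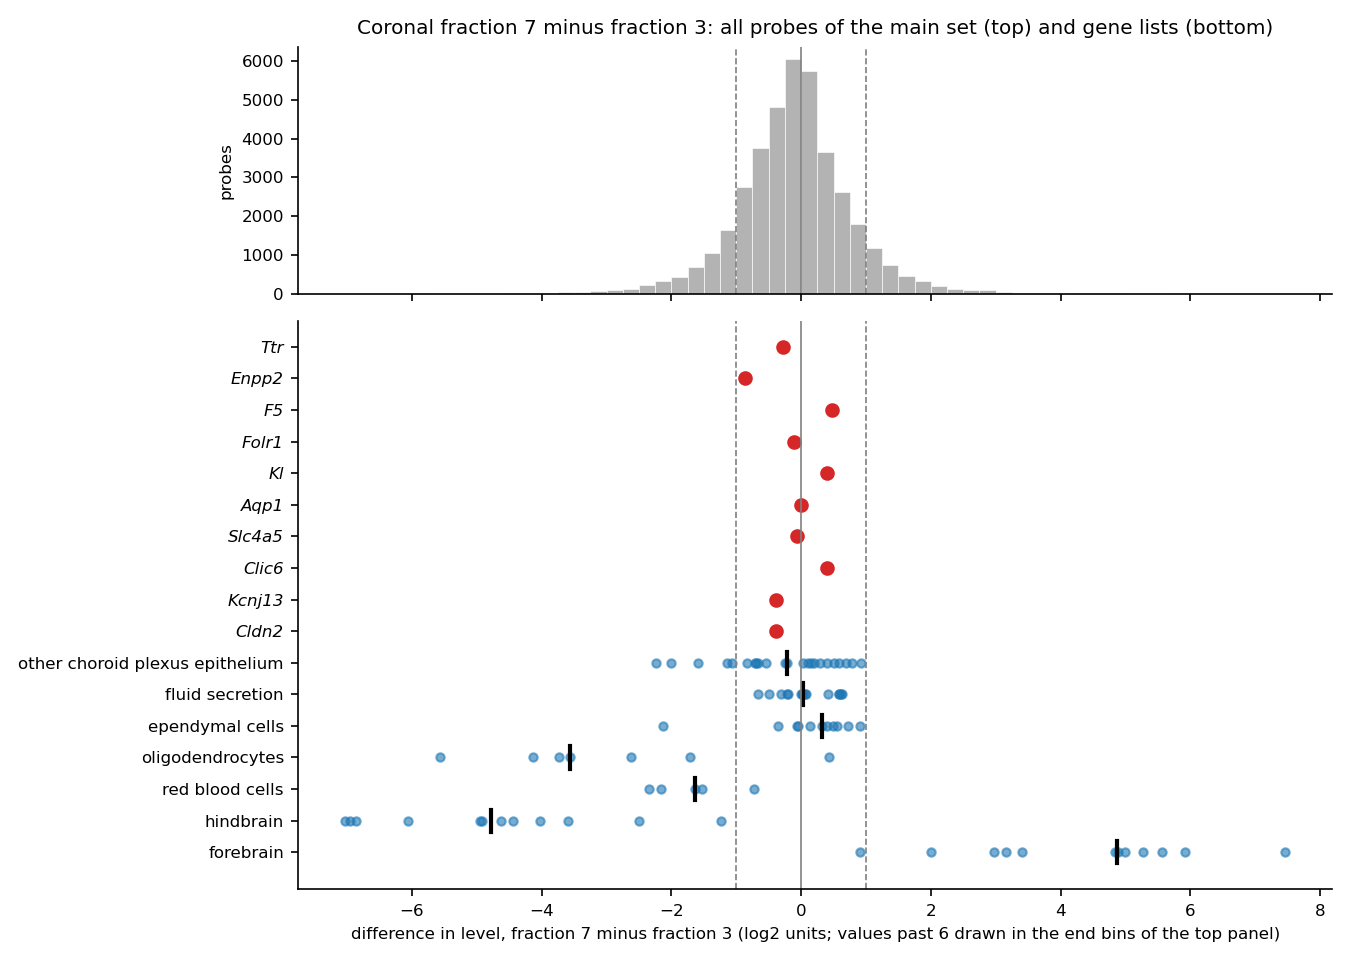
Difference in level between coronal fractions 7 and 3 (horizontal axis, log2 units) for all 39621 detected probes as a histogram (top) and for single genes (bottom), with the choroid plexus genes in red, other lists in blue and black bars at list medians. The 10 red points lie between -0.86 and 0.48, inside the dashed lines at 1 log2 unit, while hindbrain and forebrain genes lie far to either side. Most hindbrain genes were not well above background in fraction 7.

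Markers of other cells were followed along the coronal series in the same way. Ependymal cells, the ciliated lining of the ventricles, peaked in the same fractions: 11 of 11 of their markers had a local peak in both fraction 3 and fraction 7, and in 9 of 11 the mean of these fractions exceeded that of fractions 4 and 5 by more than 1 log2 unit. Their summed level was 64.0 in fraction 3, 18.5 in fraction 4, 13.8 in fraction 5 and 32.2 in fraction 7. The lower sum in fraction 7 came from Mia, the brightest of the list, with levels of 5.41 in fraction 3 and 3.28 in fraction 7. By marker the list went slightly the other way, with a median difference of 0.32 log2 units, fraction 7 minus fraction 3, and higher levels in fraction 7 for 7 of 11. Foxj1, a transcription factor of motile cilia, had levels of 0.45 in fraction 3 and 1.00 in fraction 7, and Ccdc153 2.46 and 2.10. The plexus genes and the lining of the ventricle thus shared their positions, and their contributions to a slab were not separated. No marker of meningeal fibroblasts (of 8), brain endothelial cells (of 7), border macrophages (of 3 detected in each series) or red blood cells (of 5) had local peaks in both fractions, and 1 of 7 oligodendrocyte markers did. Over all probes 8.48% had this shape, so counts this low in short lists are near the background.

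**Figure D3:**
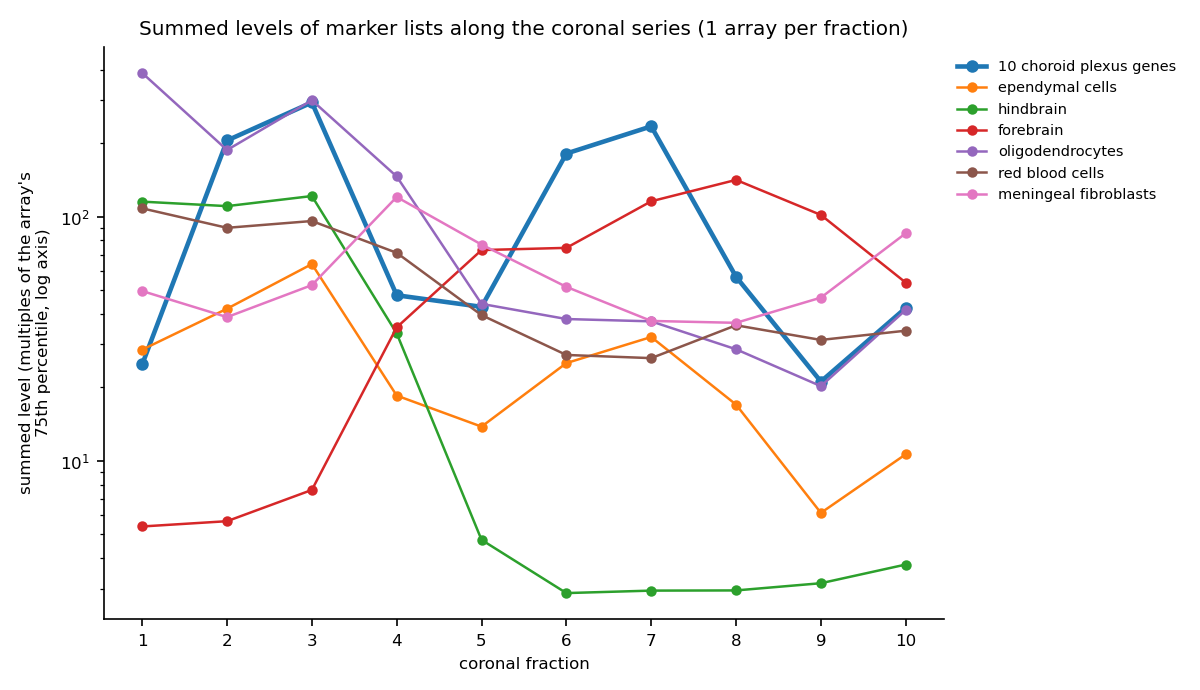
Summed level (vertical axis, log scale, in multiples of the array's 75th percentile) of the 10 choroid plexus genes and of 6 marker lists in each coronal fraction (horizontal axis), 1 array per fraction. The heights of different lists are not comparable, and sums weigh bright genes most: Ttr makes up most of the choroid plexus sum in fractions 3 and 7, and Mia most of the ependymal sum in fraction 3. The choroid plexus and ependymal lines peak in fractions 3 and 7, the hindbrain line is low from fraction 5 on and the forebrain line is low up to fraction 3.

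Change with position was tested with limma, with a linear and a quadratic term for each series in 1 model of all 22 arrays and Benjamini-Hochberg adjustment over all detected probes. In the coronal series 1 of the 10 genes passed the threshold of 0.05 (Kl, adjusted p = 0.0437 in limma), against 19.8% of all probes. The fitted Kl curve ranged over 2.47 log2 units and was highest in fraction 4, in the trough between the measured peaks. That call was lost under 7 of the 10 alternatives that tested Kl (adjusted p from 0.0258 to 0.767 in limma) and in 12 of the 22 fits that left out 1 fraction, namely coronal 2, 3, 6 or 9, horizontal 3 or 5 or any sagittal fraction (adjusted p up to 0.0837 in limma). With cubic and quartic terms added for the coronal series, 0 of 10 genes passed in limma, against 22.9% of probes, and Kcnj13, Kl, Ttr and others had adjusted p-values from 0.104 to 0.387, with an unadjusted p under 0.05 for Kl and Kcnj13. Without coronal fraction 10 that curve was passed by 4 genes (Kl, Clic6, Folr1 and Ttr), without fraction 1 by 2 (Kl and F5), and without fraction 5 by 1 (Kcnj13).

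In limma 0 of 10 genes passed in the horizontal series, against 6.57% of probes, with adjusted p from 0.119 to 0.590 and an unadjusted p under 0.05 for Cldn2 and Clic6. The sagittal linear term was passed by 0 genes in limma, against 10.2% of probes, and the sagittal quadratic term by 0, against 0.0303%, with no unadjusted p under 0.05 for either. These smooth curves described the genes poorly. The median residual SD around the quadratic curves was 0.931 log2 units over the 10 genes, against 0.376 over all probes, and all 10 lay above the latter. For Ttr it was 1.69. With the quartic curve the medians were 0.935 and 0.339. A p above the threshold here does not show that a gene did not change.

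In the horizontal series the genes formed 1 broad peak. The highest fraction was 4 for 8 of 10 genes, against 9.40% of probes. Summed ependymal markers were highest there too, at 38.4, against 9.96 in fraction 1 and 32.0 in fraction 6. The hindbrain sum was also highest in fraction 4, at 45.2. Ttr had levels of 3.26, 4.18, 7.24, 7.57, 7.21 and 5.22 from fraction 1 to fraction 6, Folr1 -0.57, 0.02, 2.06, 2.83, 2.29 and 0.59, and Clic6 -1.85, -1.75, 0.81, 1.30, 1.15 and 0.69. For each of these, fractions 3, 4 and 5 stood above the outer fractions. Ttr was 19.9-fold and Folr1 10.5-fold higher in fraction 4 than in fraction 1. Cldn2 was not well above background in fractions 1 and 2, and was at least 8.76-fold higher in fraction 4 than in fraction 2. The arrays of fractions 1 to 3 had a spike-in slope out of range and that of fraction 4 did not. These folds therefore compare unlike arrays.

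The 2 genes without this peak were Kcnj13 and F5. Kcnj13 had horizontal levels of 0.18, -1.01, -0.23, 0.69, 0.51 and 1.28, with its highest value in fraction 6. The summed fibroblast markers were also highest there, at 182, against 49.0 in fraction 4, and so were the border macrophage markers, at 33.5 against 6.5. Endothelial markers were highest there too, at 95.5 against 52.2, while ependymal markers were not, at 32.0 against 38.4. The part of any of these cells in the Kcnj13 value was not tested. Slc4a5 had its lowest horizontal level in that fraction, at -3.86, and fraction 4 was 5.01-fold higher. F5 had its highest level in fraction 2, at -2.51, and its lowest in fraction 5, at -3.69.

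Across the sagittal series, from one side of the head to the other, levels varied less. The median SD over the 6 sagittal fractions was 0.41 log2 units over the genes and 0.43 over all probes. In the coronal series the corresponding SDs were 1.16 and 0.51, and in the horizontal series 0.95 and 0.48. Ttr ranged from 6.21 in fraction 1 to 7.29 in fraction 6, and Folr1 from 0.98 to 2.52 in the same fractions. The lowest value was in fraction 1 for 6 genes, and the highest in fraction 4 for 5 genes and in fraction 6 for the other 5. Fraction 6 pooled 3 slabs and fraction 1 pooled 2, so these outer fractions cover more slabs than the rest. Summed markers of fibroblasts (98.4), endothelial cells (84.2), red blood cells (135) and border macrophages (16.9) were also highest in fraction 6. Ependymal markers were highest in fraction 4 (47.1), and oligodendrocyte markers were lower in fraction 6 than in fraction 5 (27.7 against 121). The part of these cells in the sagittal values was not tested.

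**Figure D4:**
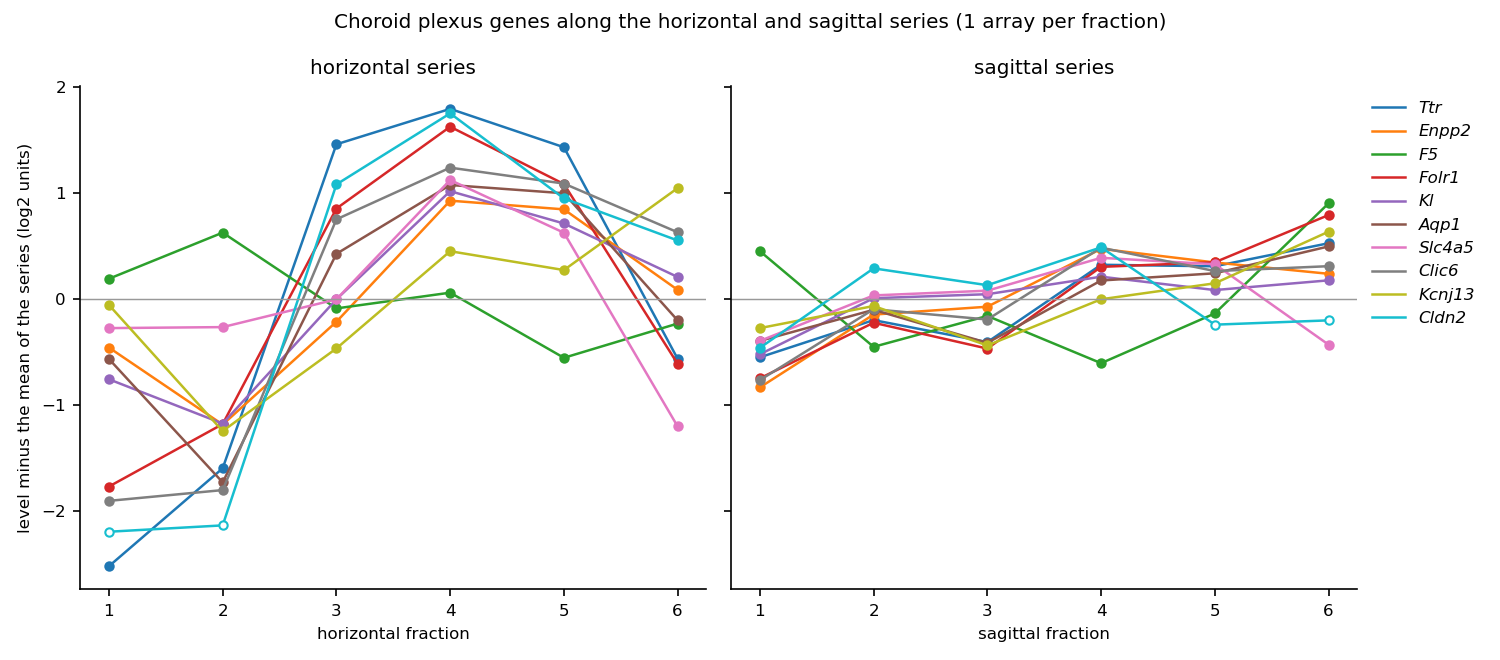
Level of each gene minus its mean over the series (vertical axis, log2 units) in the 6 horizontal (left) and 6 sagittal (right) fractions, 1 array per fraction, with open points not well above background. Most lines peak in horizontal fraction 4 and stay within about 1 log2 unit of the mean in the sagittal series, while Kcnj13 is highest in horizontal fraction 6 and F5 in fraction 2.

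How alike the profiles were was measured with Pearson's r over the 22 fractions, and pairs above 0.85 were counted as similar. All values of r share the same arrays, and neighbouring fractions are not independent, so they are given as descriptions. Of the 45 pairs among the 10 genes, 6 had r above 0.85, against 0.759% of all gene pairs. The closest pair was Ttr and Clic6, at r = 0.95, followed by Ttr and Folr1 at 0.92. Against the mean standardized profile of the other 9 genes, r was 0.95 for Folr1, 0.88 for Cldn2, 0.87 for Ttr, 0.86 for Kl and 0.86 for Clic6. It was lower for Slc4a5 (0.78), Aqp1 (0.76), Enpp2 (0.72) and Kcnj13 (0.69), and lowest for F5 (0.28). F5 had r = 0.64 in the coronal, -0.74 in the horizontal and -0.16 in the sagittal series. The single F5 probe thus did not follow the other genes outside the coronal series. Other genes departed there in part: r was 0.07 for Slc4a5 and 0.09 for Cldn2 in the sagittal series. In the horizontal series it was 0.55 for Slc4a5 and 0.51 for Kcnj13.

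The profiles of 16681 other genes were ranked by r with the mean standardized profile of the 10 genes, and 11 of them lay above 0.85. The 10 closest were Steap1 (0.94), Trpm3 (0.94), Kcne2 (0.93), Defb11 (0.92), Prr32 (0.92), Calml4 (0.92), Sostdc1 (0.89), Tex22 (0.89), Trpv4 (0.88) and Casc1 (0.85). Kcne2 is an accessory subunit of potassium channels, Trpm3 and Trpv4 are cation channels and Sostdc1 is a secreted antagonist of bone morphogenetic proteins. Of these, 5 stood on the list of other epithelial genes and Trpv4 on the list of fluid secretion. Kcne2 had a level of 1.01 in fraction 3, a mean of -2.47 in fractions 4 and 5 and a level of 0.18 in fraction 7. Between fractions 3 and 7 it differed by -0.84, Defb11 by -0.73, Calml4 by -0.72 and Steap1 by -0.70 log2 units, which is more than 9 of the 10 choroid plexus genes differed in that direction, while Sostdc1 (0.10), Trpv4 (0.03) and Casc1 (0.11) were nearly level.

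**Figure D5:**
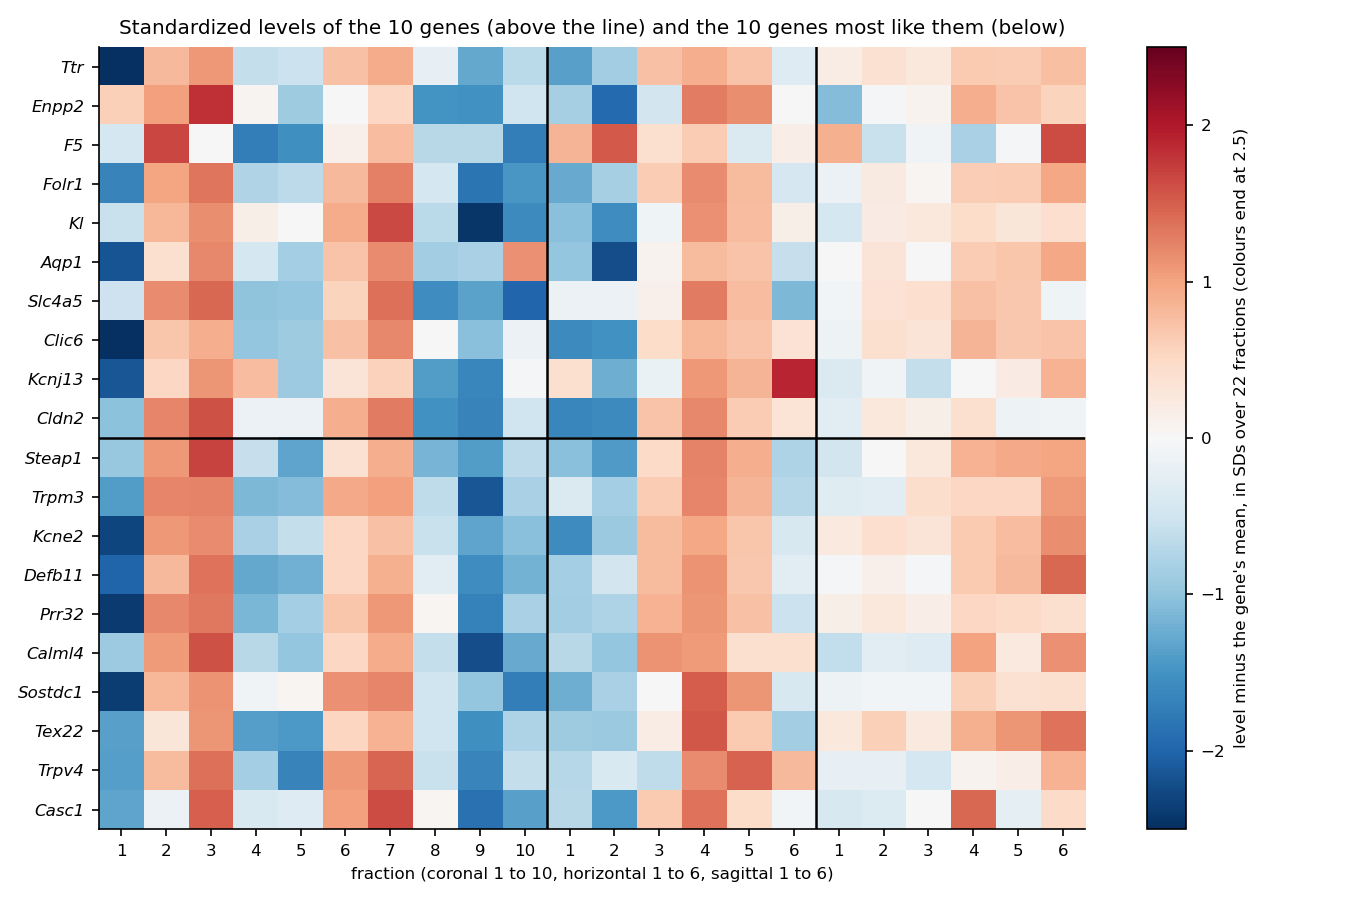
Level of each gene in each of the 22 fractions, as its deviation from the gene's own mean in SDs (colour), for the 10 choroid plexus genes above the horizontal line and the 10 genes with the most similar profiles below it. Columns are the coronal, horizontal and sagittal fractions in order, and red blocks stand at coronal 2 to 3 and 6 to 7 and at horizontal 3 to 5 in most rows.

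Other genes of the epithelium followed this course in part. Of 23 such genes with a probe (25 were listed), 14 had local peaks in both fractions 3 and 7, and in 10 these exceeded fractions 4 and 5 by more than 1 log2 unit, against 8.48% and 3.71% of all probes. In limma 6 of 23 passed for coronal position and 6 with the quartic curve, against 19.8% and 22.9% of all probes, so these counts are near the background. By size of the fitted range these were led by Lmx1a, Otx2 and Rdh5 (adjusted p = 0.00885, 0.00149 and 0.00312 in limma). Otx2, a homeodomain factor of the forebrain and midbrain that is also made in the plexus, had levels of 2.93 in fraction 3, 2.64 in fraction 4 and 1.34 in fraction 7, without a trough. Lmx1a, a factor of the roof plate, had its highest coronal level in fraction 5 and so no trough there, with -0.36 in fraction 3 and -2.36 in fraction 7, and Rdh5, a retinol dehydrogenase, 2.99 and 0.75. These 3 were therefore lower in fraction 7 by 1.58 to 2.24 log2 units, and 5 of 23 were lower by more than 1, against 0 higher by as much (12.4% and 8.88% of all probes).

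Transporters and enzymes of fluid secretion, most of which other brain cells make too, followed as a further list. Of 15 genes 5 had local peaks in both fractions, and in 1, Trpv4, these exceeded fractions 4 and 5 by more than 1 log2 unit, against 8.48% and 3.71% of all probes, the latter count being near the background. In limma 1 of 15 passed for coronal position, against 19.8% of all probes, and 4 for horizontal position, against 6.57%. The widest fitted ranges belonged to Slc4a10, Slc13a4 and Car12, none of which passed with the quartic curve (adjusted p = 0.183, 0.0583 and 0.315 in limma). Slc13a4, a sulfate transporter also made in the meninges, had its highest coronal level in fraction 4, at 3.68, against 2.03 in fraction 3 and 2.62 in fraction 7.

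Partners and relatives of the 10 genes, such as other folate carriers, claudins and aquaporins, shared the shape in 2 of 19 detected genes, and in 0 of 19 did these fractions exceed fractions 4 and 5 by more than 1 log2 unit. Both counts are near the shares of all probes (8.48% and 3.71%). In limma 7 of 19 passed for coronal position, 10 with the quartic curve and 6 for horizontal position, against 19.8%, 22.9% and 6.57% of all probes. Cldn11, a claudin of myelin, differed from Cldn2 in its course: it had levels of 4.84 in fraction 1, 4.09 in fraction 3 and 1.58 in fraction 7 (adjusted p = 0.00638 in limma with the quartic curve). Cldn3 had levels of -0.40 in fraction 3 and -0.91 in fraction 7.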

How the data were processed

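Total RNA of 22 brain fractions was measured on 1-colour (Cy3) Agilent SurePrint G3 Mouse arrays designed on mm9. Per the file headers, Feature Extraction 10.10.1.1 was the software used by the authors, who deposited background-subtracted values: 1 processed intensity and a well-above-background mark for each spot. A further deposited table held log2 values, which lay within 0.02 of those computed here for 99.9% of its entries, and served as an alternative.

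Here outlier spots and control spots were left out, spots of a probe were averaged, and for 55600 probes log2 of the intensity over the 75th percentile of its array was computed. Symbols came from RefSeq (26553 of 28087 RefSeq probes matched; names only). The section plane given in the labels set the groups. In all, 39621 probes were detected in every series (in 1 fraction or more) and were tested with limma 3.58.1 in R 4.3.3 (13 residual degrees of freedom, 11 with the quartic curve), with Benjamini-Hochberg adjustment at 0.05, and descriptive values were computed in Python 3.11.15. Models were run on simulated data with independent noise and added curves of the fitted form. Such data cannot show how the models do on peaks of another shape. Error in these fits is how far single arrays lie from a curve, over 3 mice together; it holds no spread between animals, and precision is limited by the number of arrays.

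The genes and lists were chosen with earlier results of these data known. The 10 genes are given in full. Other lists are given by count, with values for the 3 genes of widest fitted coronal range among those passing the quartic fit (or of all, where fewer passed), and for the 10 genes with the most similar profile; some of these values are not reported here. No promoter is printed for Ttr, Clic6, Enpp2 and Folr1, which were not searched, nor for Slc4a5 and F5, whose windows were searched. Alternatives were 5 other scalings or value sources, other filters on dim probes, the mean of all RefSeq probes of a gene, a dim spike-in probe (a107) as a covariate, the slide as a block, each series alone, and leaving out each fraction. Normexp correction used median spot signals with an offset of 50.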

Additional observations from a re-analysis of the deposited data

Results flagged for a closer look

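Each gene's values within each series were examined for a fraction far from the rest, 30 groups in all. In 1 group the gap between an end value and its nearest neighbour was large against the whole range: the Kl level in sagittal fraction 1, at -3.06, lay below the other 5 sagittal fractions (-2.53 to -2.33), and the gap was 0.723 of the range. Chance gives such a gap in about 1 of 20 groups. That array was 1 of the 7 whose spike-in slope was out of range, and the fraction pooled slabs 1 and 2.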

How the results depend on the processing

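No paired analysis was possible because the fraction numbers name positions in different brains and do not pair samples across the series. For coronal position, the count of genes passing limma's threshold (1, Kl) became 0 with quantile normalization, normexp correction, the deposited table, no filter on dim probes, a107 as a covariate, the slide as a block, or the coronal arrays alone; under the block the adjusted p of Kl was 0.767 in limma and the sign of its linear term was reversed. With only probes detected in all 22 fractions it was also 0, by construction, since Kl was detected in 21 and was left out (7 of the genes remained). The quartic count was 2 (Kl and Kcnj13) without scaling. Leaving out 1 fraction at a time gave 0 to 1 for coronal position, 0 to 4 for the quartic curve and 0 for the horizontal and both sagittal terms. The cause of the other changes was not tested. In 6 other scalings or probe readings, 9 to 10 genes had their highest coronal level in fraction 3 or 7, 9 to 10 had local peaks in both, 6 to 9 had a trough of over 1 log2 unit, 8 to 9 peaked in horizontal fraction 4, and 0 differed by over 1 log2 unit between fractions 3 and 7. Cldn2 was well above background in 13 of 22 fractions, and in the others its level is a bound.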
